A study of Petromyzon marinus and Lampetra planeri with 28 samples.

Results

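Of 236315 accessible regions in the consensus peak set of the sea lamprey (*Petromyzon marinus*), 21668 (9.17%) were intergenic peaks near genes. Such a peak had its centre outside the span of every locus of the study's transcriptome, with or without a strand, and more than 1000 bp but no more than 10 kb from the nearest transcript start of a stranded locus spanning 1500 bp or more. Of the other peaks, 24383 had their centre within 1000 bp of such a start, 104780 lay inside a locus and 85484 were intergenic but farther away, or on a scaffold with no such start. The 21668 peaks lay on 1816 scaffolds and had 10874 nearest loci, 43.0% of the 25294 loci whose starts were used. They made up 19.3% of the 112103 peaks outside every locus.

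The study examined neural crest, a vertebrate cell population that forms at the dorsal edge of the neural tube, in jawless embryos. The dissected tissue holds premigratory crest at T18, early-delaminating crest at T20 and late-delaminating crest at T21. The paper describes it as a mixed population that also held dorsal neural and ectodermal tissue. RNA-seq covered dorsal neural tubes (DNTs) dissected from sea lamprey embryos at Tahara stages T18 (3 libraries), T20 (2 libraries) and T21 (3 libraries), each from a pool of 30 embryos at T18 and 35 at T20 and T21. ATAC-seq, in which a transposase inserts adapters into open chromatin, covered DNTs at T20 and T21 and heads at T23, in 9 sea lamprey and 10 brook lamprey (*Lampetra planeri*) libraries from 6 to 20 embryos each. The labels name no genotype and no treatment for any of these groups. Each species has 1 peak set, pooled by the authors over stages and replicates, so the peaks carry no stage and no replicate, and the interval given with a share (95%, Wilson) covers counting error only.

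Open chromatin between genes holds many of the enhancers that set where and when a gene is transcribed, as well as insulators and promoters of unannotated transcripts. An enhancer can act on a gene other than the closest one and from either side of it. The nearest start therefore only gives a position, and accessibility alone does not tell an active enhancer from other open DNA.

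The peaks were mostly short. Their median width was 343 bp (quartiles 246 and 520 bp, range 199 to 6544 bp), against 389 bp within 1000 bp of a start, 325 bp inside loci and 349 bp for far intergenic peaks. The median distance to the nearest start was 4961.5 bp (quartiles 2793.75 and 7266 bp). Another sea lamprey peak lay within 1000 bp of 50.8% of them. At the widest, a region of 6544 bp at scaf_00272:7421-13964 lay 5953 bp downstream of the start of XLOC_060779 and shared 6512 of its bases with brook lamprey peaks. It was singled out after its width was seen. At the limits of the definition, in the first 10 bp beyond 1000 bp there were 28 peaks, 9 of them overlapping a brook lamprey peak, against 36 and 14 in the last 10 bp within it. In the last 10 bp up to 10 kb there were 21, 8 of them overlapping, against 14 and 5 in the next 10 bp.

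Upstream peaks made up most of the set, and so did upstream DNA. Of the 21668 peaks, 17473 (80.6%, 80.1 to 81.2) lay upstream of the nearest start and 4195 (19.4%, 18.8 to 19.9) downstream. The DNA that meets the definition came to 98.9 Mb, of which 82.4% was upstream, because a downstream position outside every locus has to lie past the 3′ end of its own gene. Per Mb of that DNA there were 215 peaks upstream and 241 downstream, 219 on both sides together. Far intergenic DNA held 201 peaks per Mb and intergenic DNA within 1000 bp of a start 314 per Mb. Each scaffold was taken to end at the last base of any peak or locus, which can raise these densities. This bears most on far intergenic DNA, where 34851 peaks lay on scaffolds with no such start. Density did not fall steadily with distance. It was 230 per Mb upstream at 1 to 2 kb, 205 at 4 to 5 kb and 211 at 9 to 10 kb, and downstream it ranged between 228 and 252 per Mb. No test was made on these densities, since 1 pooled peak set holds no replicate.

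**Figure D1:**
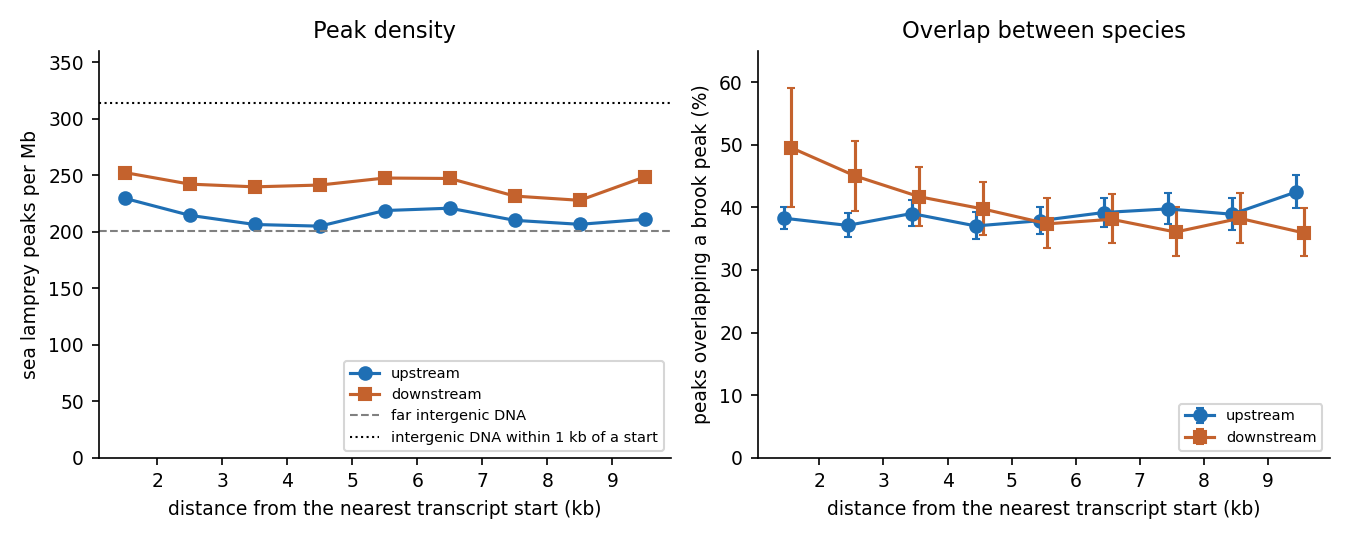
Left, sea lamprey peaks per Mb of intergenic DNA in 1 kb steps of distance from the nearest transcript start, upstream (circles) and downstream (squares), with dashed and dotted lines for far intergenic DNA and for intergenic DNA within 1 kb of a start. Right, the share of these peaks that overlap a brook lamprey peak by at least 1 bp, with 95% Wilson intervals. Both sides sit between 205 and 252 peaks per Mb at all distances, and the share of upstream peaks sits between 37.0% and 42.4%.

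The loci nearest to downstream peaks had a shorter median span. The median span of the nearest locus was 3944 bp for a downstream peak and 10821 bp for an upstream one. Downstream peaks lay a median of 2528 bp past the 3′ end, and 943 of them (22.5%) within 1000 bp of it. By the orientation of the flanking loci, 33.2% of all peaks lay between divergent genes, 39.5% between genes pointing the same way, 7.55% between convergent genes and 19.7% beside a scaffold end with a locus on 1 side only. The median gap between the flanking loci was 28717 bp for divergent and 21445 bp for convergent pairs.

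Many of these regions were also accessible in the brook lamprey. The authors mapped brook lamprey reads to the sea lamprey genome and called 314377 peaks. Of the 21668 sea lamprey peaks, 8371 (38.6%, 38.0 to 39.3) overlapped one of them by at least 1 bp. The share was 38.6% upstream (37.9 to 39.3) and 38.8% downstream (37.3 to 40.2). Over all sea lamprey peaks it was 39.1% (38.9 to 39.3), so these peaks were shared about as often as peaks at large. It was 45.3% (44.6 to 45.9) for peaks within 1000 bp of a start, 39.7% (39.4 to 40.0) inside loci and 36.8% (36.4 to 37.1) for far intergenic peaks. Brook lamprey peaks covered 10.9% of all DNA that meets the definition and 30.0% of the bases of these sea lamprey peaks. From the other side, 27833 brook lamprey peaks met the same definition, 281 per Mb and 82.8% of them upstream, and 30.5% of those overlapped a sea lamprey peak. These overlaps depend on how well brook lamprey reads map to another species' genome, which was not measured here.

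The overlap was greater for wider peaks of each kind. All sea lamprey peaks were split by the quartiles of their width. In the narrowest class, up to 243 bp, 28.8% (27.6 to 30.1) of the intergenic peaks near genes overlapped a brook lamprey peak. The share was 34.7% (33.5 to 36.0) over 243 and up to 341 bp, 42.1% (40.8 to 43.4) up to 525 bp and 48.8% (47.4 to 50.1) above that. Peaks within 1000 bp of a start in the widest class reached 61.4% (60.3 to 62.5) and far intergenic peaks 45.1% (44.5 to 45.7), whereas among the narrowest the shares of the 4 kinds of peaks lay between 28.4% and 30.3%. A wider peak offers more bases to an overlap of 1 bp, and the part of this in the trend was not tested. Downstream of a start the share was 49.5% (40.1 to 59.0) at 1 to 2 kb, where only 103 peaks lay, and 35.9% (32.2 to 39.9) at 9 to 10 kb. Upstream it was 38.3% (36.6 to 40.0) and 42.4% (39.8 to 45.1) at these distances. Beside a scaffold end the overlap was 43.1% (41.6 to 44.6), against 37.1% to 38.1% in the other 3 arrangements.

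**Figure D2:**
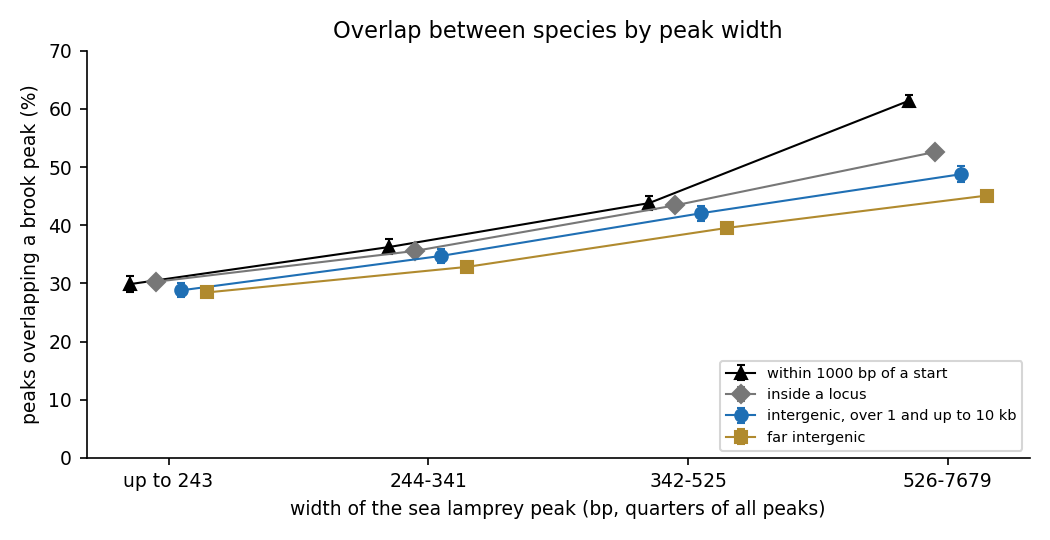
Share of sea lamprey peaks that overlap a brook lamprey peak by at least 1 bp (vertical axis, %), in 4 classes of width set by the quartiles over all sea lamprey peaks (horizontal axis, bp), for 4 kinds of peaks, with 95% Wilson intervals. The share for intergenic peaks near genes rises from 28.8% to 48.8%, and at the widest peaks lies below the 61.4% of peaks within 1000 bp of a start.

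Most nearest loci had few of these peaks. A single peak was found at 4828 loci (44.4%), 2 at 3207 (29.5%) and 5 or more at 465 (4.28%), and 1205 loci had peaks on both sides. At least 1 peak shared with the brook lamprey was found at 5952 loci (54.7%). Of the 14420 other stranded loci of 1500 bp or more, 7996 were not the nearest to any DNA that meets the definition. A locus had 9 or more peaks in 6 cases, and the 5 of these with the most peaks or, among equals, the highest counts carried no gene name in the study's lists. XLOC_062072 (scaf_00460:20402-21962) had 10, of which 6 lay upstream and 7 overlapped a brook lamprey peak. XLOC_063333, XLOC_066214, XLOC_039378 and XLOC_054838 had 9 each, with 2, 3, 3 and 5 overlapping. Normalised counts of XLOC_062072 were 36.2, 23.1 and 23.5 at T18, 12.0 and 16.8 at T20 and 9.73, 16.8 and 10.4 at T21, and T21 did not pass the test against T18 (log2 fold change -1.18 ± 0.47 SE, edgeR adjusted p = 0.073, or an adjusted p of 0.041 with upper quartile normalisation). The T18 libraries all lay above those of T21. For the next 3 loci the same comparison gave log2 fold changes of 0.09 ± 0.20 (SE, edgeR adjusted p = 0.78), -0.08 ± 0.36 (SE, edgeR adjusted p = 0.9) and 0.28 ± 0.56 (SE, edgeR adjusted p = 0.76). XLOC_054838 had 1 count in all 8 libraries, so its 9 peaks lay beside a locus that was hardly detected.

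The counts of the nearest loci were then compared between stages. Normalised counts are fragment counts that the authors scaled by a DESeq2 size factor for every library. Between 12172421 and 91015285 fragments were counted per library. Per kb of exonic length, the median nearest locus had 18.4, 18.3 and 19.0 normalised counts in the T18 libraries, 22.3 and 19.7 at T20 and 25.8, 25.5 and 27.0 at T21. All 3 T21 libraries lay above the other 5. The 14420 stranded loci without such a peak had medians of 24.7, 23.9 and 24.9 at T18, 28.0 and 25.8 at T20 and 32.1, 32.0 and 32.2 at T21, higher than the nearest loci in each library. Of these 14420 loci, 7996 were not the nearest to any DNA that meets the definition, so they could not have such a peak. The 14420 loci also had a median exonic length of 3391 bp, against 2778 bp for the nearest loci. Loci with more peaks were shorter and less abundant. With 5 or more peaks, the median level was 10.4 per kb in T18 replicate 3 and 13.8 in T21 replicate 3, against 25.1 and 35.5 with 1 peak. These are levels in bulk tissue, in which fewer cells of a type and less RNA per cell cannot be told apart.

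From T18 to T21, the share of nearest loci that changed was close to that of all loci of 1500 bp or more. Of the 10874 nearest loci, 7477 had enough counts to be tested. In the quasi-likelihood test of edgeR, with p-values adjusted by the Benjamini-Hochberg method over all 25317 loci tested, 3201 of them (42.8%) differed at an adjusted p under 0.05, against 33.6% of all loci tested and 41.6% of stranded loci spanning 1500 bp or more. Of the nearest loci, 1848 were higher at T21 (24.7%, against 23.4% of stranded loci of that size and 18.9% of all loci tested) and 1353 lower (18.1%, against 18.2% and 14.7%). The median log2 fold change was 0.03 over the nearest loci and -0.03 over all loci tested. With upper quartile normalisation, which lowered the log2 fold changes of all loci by a median of 0.15, the split was 1576 higher and 1899 lower. From T18 to T20, 1111 nearest loci rose (14.9%, against 13.6% of stranded loci of that size and 10.8% of all loci tested) and 643 fell (8.60%, against 8.11% and 6.51%). Together these were 23.5%, against 21.7% and 17.3%. Upper quartile normalisation gave 941 and 995. From T20 to T21, 616 rose (8.24%, against 6.95% and 5.40%) and 433 fell (5.79%, against 5.69% and 4.40%). Together these were 14.0%, against 12.6% and 9.80%. Upper quartile normalisation gave 581 and 564, and a fit to the libraries of these stages alone gave 577 and 267. Without T21 replicate 1, 2 or 3 this last total of 1049 was 568, 600 and 567.

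The nearest loci were then split by the number, overlap and side of their peaks. Between T18 and T21, 40.9% of tested loci with a peak shared with the brook lamprey differed and 45.1% of those without, with median abundances of 67.4 and 82.7 normalised counts per kb. With 1, 2, 3 or 4, and 5 or more peaks, 44.9%, 42.1%, 40.3% and 37.1% differed, and the median of the mean raw count per library went from 443 to 135 over these groups. Loci with at least 1 upstream peak differed in 44.6% of cases and loci with downstream peaks alone in 31.7%, with median spans of 16328.5 and 5275 bp and median raw counts of 366 and 137. The split by side also carries the limit that the definition sets on loci with downstream peaks. Abundance and length moved with each of these splits, and their part in the shares was not tested. Over both steps, 257 nearest loci (3.44%) rose from T18 to T20 and again to T21, and 101 (1.35%) fell at both steps. These shares were 2.76% and 1.31% over stranded loci of that size.

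**Figure D3:**
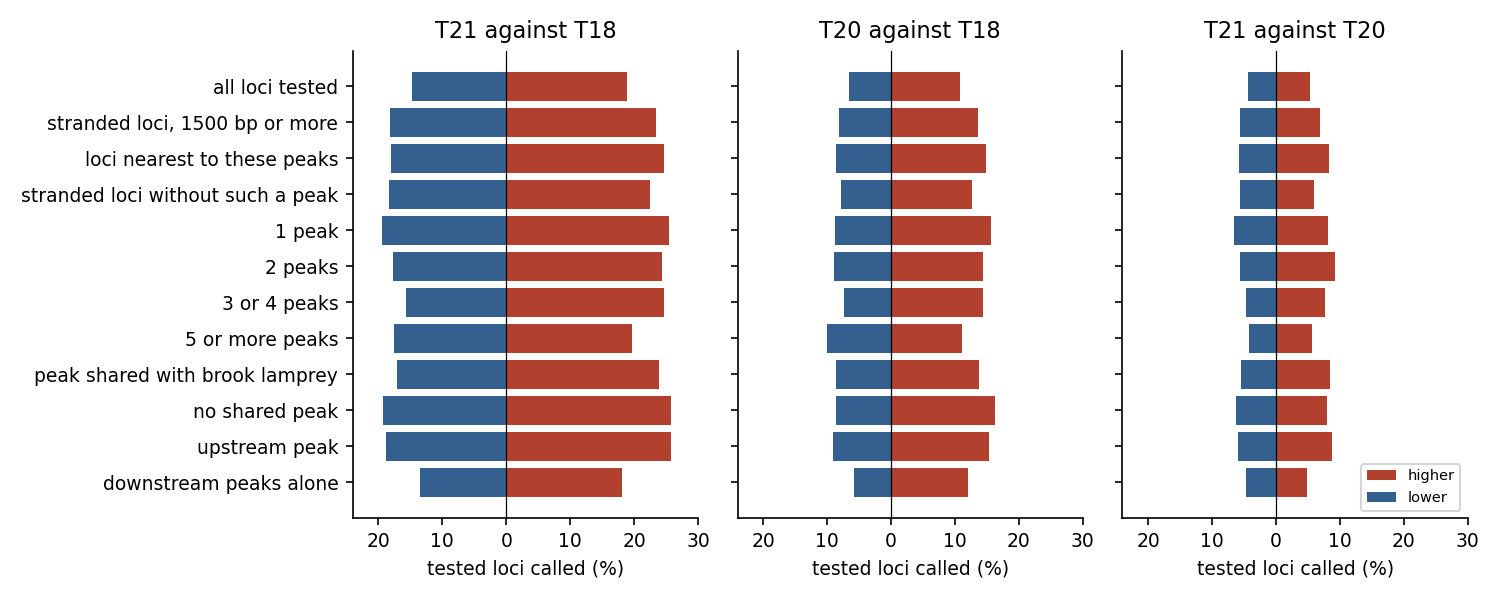
Share of tested loci called higher (right) or lower (left) at the later stage, in % of the loci tested in each group (horizontal axis), for the 3 stage comparisons. Rows give all loci tested, stranded loci of 1500 bp or more, the loci nearest to the intergenic peaks, stranded loci without such a peak, and the nearest loci split by number of peaks, by overlap with the brook lamprey and by side. For T21 against T18 the nearest loci stand at 24.7% higher and 18.1% lower, and stranded loci without such a peak at 22.4% and 18.3%.

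Gene names came from lists that the study had chosen partly by their change in these libraries. Among the 4724 tested loci with a name, 80.4% differed between T18 and T21, 55.2% higher and 25.2% lower. The shares were 42.4% from T18 to T20 (29.1% higher, 13.3% lower) and 31.9% from T20 to T21 (17.8% higher, 14.0% lower), so a high count of calls among named genes says nothing about their peaks, and these counts are no independent evidence of a direction. Of the 5028 named loci, 2250 were nearest to a peak of this kind. Over all intergenic peaks near genes, 38.6% were shared and 80.6% lay upstream, and the peaks of no list were tested against these shares. A locus with several gene names was counted in each list that 1 of them matched. XLOC_005235, named *COL15A1*, *ITGB1* and *Kunitz-type*, stands in both the integrin and the matrix list. Counts of such a locus cannot be assigned to a single gene. The largest changes named below were taken among nearest loci with a gene name and a shared peak, with more than 3 raw counts in each library of both stages and no overlap between the libraries of these stages. The positions of the peaks around the 58 loci picked out by the naming rule are shown as a map, and every position below is the distance of the peak centre from the nearest start.

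**Figure D4:**
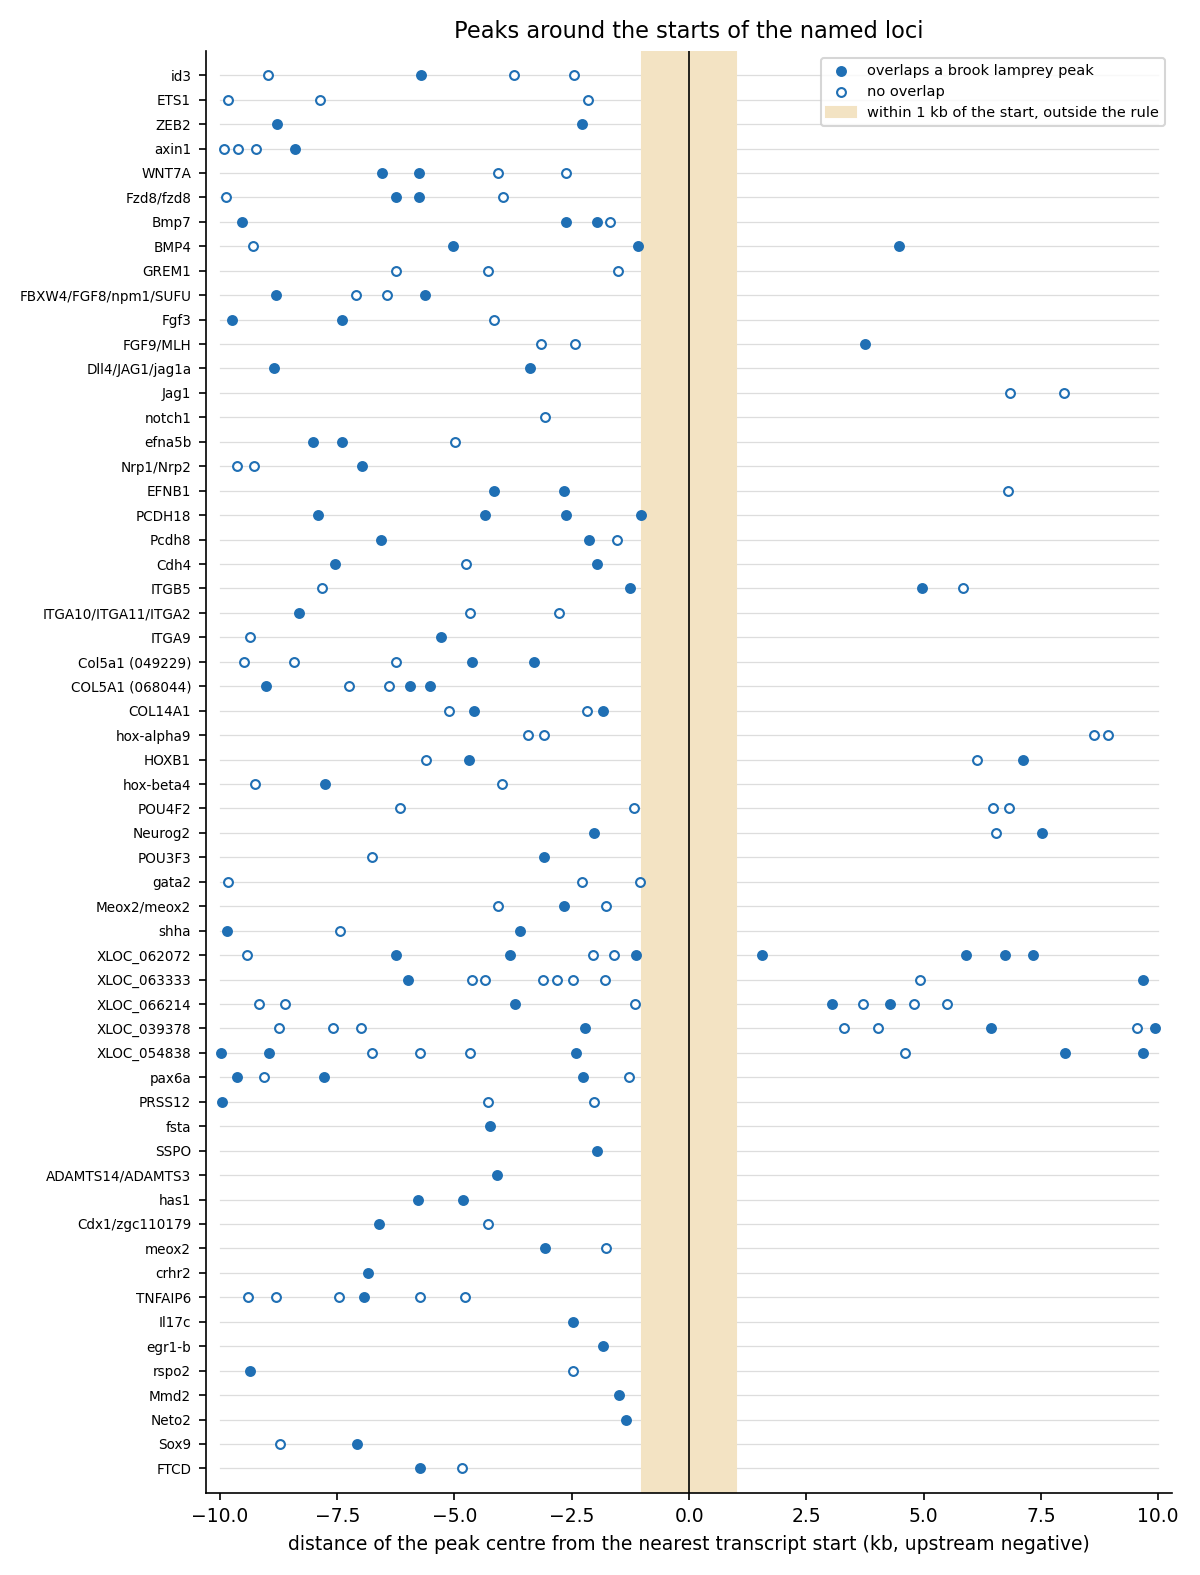
Intergenic peaks near the starts of the named loci, 1 row per locus. The horizontal axis is the distance of the peak centre from the nearest transcript start (kb, upstream negative), filled points overlap a brook lamprey peak and open points do not, and the band within 1 kb of the start lies outside the definition. At a locus with several starts, such as *ITGB5*, upstream and downstream peaks can refer to different starts. All 4 peaks of *PCDH18* are filled, whereas none of the 4 at *POU4F2* or *hox-alpha9* are.

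Factors of the neural plate border and neural crest were close to 29 of these peaks. Of 33 named loci, 18 were nearest to at least 1, and 11 of the 18 had a shared peak. Between T18 and T21, 12 of 17 tested loci rose, 3 fell and 2 did not pass the test, with a median log2 fold change of 0.88. Of the 15 other tested loci of this list, 10 rose and 4 fell. *id3*, whose product blocks the DNA binding of other factors, had 4 upstream peaks between 2447 and 8967 bp from its start, and the one at 5718 bp was shared. Normalised counts came to 3291, 3055 and 3166 at T18, 5054 and 5308 at T20 and 5485, 6499 and 5738 at T21. The T18 libraries all lay below the others, and T21 exceeded T18 (log2 fold change 0.88 ± 0.08 SE, edgeR adjusted p = 3e-06). *ZEB2*, a zinc-finger repressor involved in epithelial to mesenchymal transition, had 2 upstream peaks, at 2282 and 8776 bp, shared over 19 and 239 bases. It had normalised counts of 4488, 3494 and 3409 at T18, 3869.9 and 3742 at T20 and 5580.1, 5927 and 5541 at T21. The change came between T20 and T21 (log2 fold change 0.57 ± 0.11 SE, edgeR adjusted p = 0.0067), while T20 and T18 libraries overlapped. A locus named *ETS1* had 3 upstream peaks, none shared. Its raw counts were only 0, 0 and 1 at T18, 0 and 0 at T20 and 2, 5 and 22 at T21, too few to be tested. Another locus, XLOC_030328, named *ets1-b*, had 1 upstream peak, not shared. The paper reports *Ets1b* as depleted at T21 against T18, and refers to earlier findings of its absence from migratory crest of lampreys.

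Among loci named *Sox9*, after a factor needed for crest specification, XLOC_003722 had 1 upstream peak, not shared. The *Sox9* locus XLOC_013714 (scaf_00011:14237196-14250526) had upstream peaks at 7082 bp, shared over 230 bases, and at 8711 bp, not shared. The libraries held normalised counts of 5.00, 0 and 1.35 at T18, 16.4 and 305 at T20 and 3333, 3317 and 3294 at T21. The libraries of the 3 stages did not overlap, but those of T20 differed widely from each other. From T20 to T21 it had one of the 3 largest increases (log2 fold change 4.42 ± 0.89 SE, edgeR adjusted p = 0.035). Without T20 replicate 1 this log2 fold change was 3.45 and without T20 replicate 2 it was 7.65. The call was lost without T18 replicate 3 or any 1 of the T21 libraries, with edgeR adjusted p-values between 0.055 and 0.084, and without a filter on low counts (edgeR adjusted p = 0.1).

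Wnt signalling genes were close to 46 peaks, 44 of them upstream and 18 shared. Of 33 named loci, 21 were nearest to a peak, and 10 of the 21 rose and 10 fell from T18 to T21. Among the 12 other tested loci of this list, 5 rose and 6 fell. The ligand gene *WNT7A* had 4 upstream peaks between 2615 and 6540 bp, of which the 2 farthest were shared over 443 and 224 bases. In the 8 libraries the normalised counts were 724, 1114 and 1029.8 at T18, 541 and 199 at T20 and 64.2, 30.6 and 86.6 at T21. Each T21 library lay below each T18 library (log2 fold change -3.89 ± 0.48 SE, edgeR adjusted p = 0.00048). The receptor gene *Fzd8* also had 4 upstream peaks with 2 shared, at 5761 and 6240 bp, and normalised counts of 111, 557 and 999.8 at T18, 76.2 and 166 at T20 and 50.6, 7.65 and 27.8 at T21. It was lower at T21 than at T18 (log2 fold change -4.37 ± 0.99 SE, edgeR adjusted p = 0.016), or -3.62 on the log2 scale when T18 replicate 3 was left out, and an edgeR adjusted p of 0.055 without T21 replicate 3 and 0.066 without a filter on low counts. The T18 libraries spread widely, and the lowest of them lay below 1 of the T20 libraries. Among loci named *axin1*, after a scaffold of the complex that degrades beta-catenin, XLOC_035147 had 2 peaks, 2 of them shared. The *axin1* locus XLOC_021511 had 4 peaks packed between 8408 and 9919 bp upstream, 1 of them shared. It had normalised counts of 2292, 2629 and 2466 at T18, 3867 and 2931 at T20 and 4242, 4271 and 3863 at T21, and T21 lay above T18 (log2 fold change 0.72 ± 0.10 SE, edgeR adjusted p = 0.00012). *rspo2*, which encodes a secreted enhancer of Wnt signalling, had upstream peaks at 2465 and 9368 bp, the outer one shared. It had normalised counts of 1491, 1523 and 1977 at T18, 181 and 158 at T20 and 329, 416 and 308 at T21, lowest at T20, with a log2 fold change of -3.30 ± 0.20 (SE, edgeR adjusted p = 4e-07) from T18 to T20 and 1.03 ± 0.19 (SE, edgeR adjusted p = 0.0048) from T20 to T21.

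BMP and TGF-beta genes were close to 31 peaks, 17 of them shared. Of 30 named loci, 16 were nearest to a peak and 11 of those had a shared one. At T21 against T18, 8 of 15 tested loci rose and 5 fell. Of the 14 other tested loci of this list, 7 rose and 6 fell. Loci named after the ligand gene *BMP4* included XLOC_034334, which had 1 peak, shared. The *BMP4* locus XLOC_011900 had upstream peaks at 1099, 5034 and 9289 bp and a downstream peak at 4468 bp. Overlap of these peaks with brook lamprey peaks was 18, 4, 0 and 314 bases in that order. Its normalised counts were 0, 0.826 and 2.16 at T18, 19.4 and 37.2 at T20 and 64.2, 113 and 82.9 at T21. All T21 libraries lay above all T18 libraries (log2 fold change 5.80 ± 0.58 SE, edgeR adjusted p = 6.8e-06). Without T18 replicate 3 the T18 libraries left held 0 and 1 raw counts, too few to give a fold. *Bmp7*, also a ligand gene, had 4 upstream peaks, at 1681, 1969, 2614 and 9527 bp. All but the first were shared, over 61, 40 and 292 bases. Normalised counts came to 92.4, 60.3 and 32.4 at T18, 420.0 and 480.4 at T20 and 782, 744 and 781 at T21, higher at T21 than at T18 (log2 fold change 3.73 ± 0.29 SE, edgeR adjusted p = 2.5e-06). *GREM1*, which encodes a secreted BMP antagonist, had 3 upstream peaks, none shared, and went the other way with normalised counts of 1509, 2720.4 and 3480.3 at T18, 486 and 186 at T20 and 54.5, 30.6 and 32.6 at T21 (log2 fold change -6.15 ± 0.57 SE, edgeR adjusted p = 0.00026). *fsta* encodes follistatin, which binds activin, and was named for its increase. It had 1 peak, 4248 bp upstream and shared over 157 bases. The libraries held normalised counts of 97.4, 38.0 and 30.8 at T18, 2550.1 and 3117 at T20 and 3148, 3205 and 3336 at T21, so that nearly all of the change came by T20 (log2 fold change 5.88 ± 0.38 SE, edgeR adjusted p = 6e-05).

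FGF genes were close to 15 peaks, 7 of them shared, at 8 of 13 named loci. From T18 to T21, 2 of 7 tested loci rose and 2 fell, or 2 and 4 with upper quartile normalisation. Of the 4 other tested FGF loci, 3 rose and 1 fell. The ligand gene *Fgf3* had upstream peaks at 4168, 7404 and 9744 bp, the outer 2 shared. In the 8 libraries the normalised counts were 43.7, 372 and 515 at T18, 1.49 and 9.31 at T20 and 0, 6.12 and 3.33 at T21. T18 libraries lay above all others but spread widely (log2 fold change -6.53 ± 1.16 SE, edgeR adjusted p = 0.0037), and leaving out T18 replicate 3 gave -5.94. The locus with the names *FGF9* and *MLH* (scaf_00003:18624613-18679872) had 2 upstream peaks. A shared peak past its 3′ end lay 3755 bp downstream of a later start than the one used for the upstream peaks. Normalised counts of this locus were 17.5, 3.30 and 9.46 at T18, 34.4 and 65.2 at T20 and 292, 277 and 188 at T21. They were higher at T21 than at T18 (log2 fold change 4.69 ± 0.45 SE, edgeR adjusted p = 4.4e-06). XLOC_020613 carries the names *FBXW4*, *FGF8*, *npm1* and *SUFU* over scaf_00018:618063-831163, so its counts cannot be assigned to *FGF8*. It had 4 upstream peaks with 2 shared and a log2 fold change of -0.77 ± 0.09 (SE, edgeR adjusted p = 1.5e-05), and is among the 2 loci counted above as lower. Notch genes were close to 7 peaks at 5 of 12 named loci, of which 3 rose and 2 fell. Among the 6 other tested Notch loci, 2 rose and 3 fell. The locus named *Dll4*, *JAG1* and *jag1a*, all ligands, had 2 upstream peaks at 3398 and 8839 bp, shared over 372 and 326 bases, and a log2 fold change of 0.91 ± 0.10 (SE, edgeR adjusted p = 2.2e-05). Another *Jag1* locus had 2 peaks, both downstream and unshared (log2 fold change 2.22 ± 0.27 SE, edgeR adjusted p = 3.6e-05), and the receptor gene *notch1* had 1 upstream peak, not shared (log2 fold change -0.53 ± 0.08 SE, edgeR adjusted p = 0.00012).

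Genes of axon and cell guidance were close to 44 peaks, of which 34 lay upstream and 14 were shared, at 25 of 56 named loci. Between T18 and T21, 11 of 24 tested loci rose and 11 fell. Of the 29 other tested loci of this list, 17 rose and 10 fell. The locus named *Nrp1* and *Nrp2*, coreceptors of semaphorins and VEGF, had 3 upstream peaks between 6981 and 9644 bp, 1 shared, and normalised counts of 761, 726 and 803 at T18, 208 and 91.2 at T20 and 42.8, 82.6 and 30.3 at T21. T21 was lower than T18 (log2 fold change -4.00 ± 0.38 SE, edgeR adjusted p = 2.1e-05) and the stages did not overlap. *efna5b*, for an ephrin A ligand, had 3 upstream peaks with 2 shared, at 7387 and 8009 bp, and did not pass the test between T18 and T21 (log2 fold change -0.14 ± 0.09 SE, edgeR adjusted p = 0.24, or 0.019 with upper quartile normalisation). *EFNB1*, for an ephrin B ligand, had 2 shared upstream peaks and an unshared downstream one, and was not tested, with 0 to 44 raw counts per library.

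Cadherin and protocadherin genes, which encode cell adhesion molecules, were close to 23 peaks, all upstream and 12 of them shared, at 13 of 23 named loci. At T21 against T18, 8 of 12 tested loci rose and 3 fell. Among the 10 other tested loci of this list, 7 rose and 1 fell. *PCDH18* had upstream peaks at 1030, 2626, 4350 and 7914 bp, all shared, over 224, 397, 335 and 261 bases. Its normalised counts were 512, 536 and 639 at T18, 907 and 964 at T20 and 1418, 1599 and 1425 at T21. The stages did not overlap, and T21 exceeded T18 (log2 fold change 1.37 ± 0.11 SE, edgeR adjusted p = 1.2e-06). XLOC_036193, named *cdh4*, had 1 peak, not shared. *Pcdh8* and the *Cdh4* locus XLOC_052122 each had 3 upstream peaks with 2 shared. Among them was one of 1199 bp at XLOC_052122 that a brook lamprey peak covered fully, 7551 bp from the start. Their log2 fold changes were 0.53 ± 0.13 (SE, edgeR adjusted p = 0.0053) and 1.53 ± 0.24 (SE, edgeR adjusted p = 0.00028).

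Integrin genes, for receptors of the extracellular matrix, were close to 17 peaks at 10 of 18 named loci, and 7 of these peaks were shared. From T18 to T21, 9 of the 10 loci rose and 1 fell, or 8 and 1 with upper quartile normalisation. Among the 7 other tested loci of this list, 5 rose and 2 fell. Summed normalised counts over all 18 named loci did not rise. They were 56229 to 60404 at T18, 57475 and 54860 at T20 and 49038 to 56631 at T21. The locus named *ITGA10*, *ITGA11* and *ITGA2* had 3 upstream peaks, at 2767, 4673 and 8323 bp, the last shared over 207 bases. Normalised counts there were 104, 76.8 and 77.3 at T18, 829.6 and 592 at T20 and 1739, 1744 and 1664 at T21, with no overlap between stages (log2 fold change 4.33 ± 0.16 SE, edgeR adjusted p = 2e-09). *ITGA9*, with upstream peaks at 5279 bp (shared) and 9368 bp, rose as well (log2 fold change 2.37 ± 0.15 SE, edgeR adjusted p = 1.1e-07). *ITGB5* (scaf_00004:21064682-21131552) had 2 upstream and 2 downstream peaks. Of these, 1 upstream at 1264 bp and 1 downstream at 4966 bp were shared, over 171 and 25 bases. The downstream peaks lay past the 3′ end and were measured from a later start of this long locus than the upstream ones. *ITGB5* was higher at T21 (log2 fold change 2.87 ± 0.22 SE, edgeR adjusted p = 7e-07).

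Genes of the matrix and its proteases were close to 82 peaks, 76 of them upstream and 30 shared, at 51 of 124 named loci. Between T18 and T21, 30 of 47 tested loci rose and 11 fell, with a median log2 fold change of 1.41. Of the 66 other tested loci of this list, 46 rose and 9 fell. Loci named *Col5a1*, a fibrillar collagen chain, included XLOC_033081, XLOC_049342, XLOC_049343 and XLOC_063619, with 1, 2, 2 and 3 upstream peaks. The levels of these loci are not given here. XLOC_049229 and XLOC_068044, also of this name, had 5 upstream peaks each, with 2 and 3 shared, and low levels. XLOC_049229 had raw counts of 1, 2 and 33 at T18, 0 and 3 at T20 and 16, 12 and 67 at T21 and was called higher at T21 (log2 fold change 2.33 ± 0.79 SE, edgeR adjusted p = 0.037). That call was lost without any 1 of 5 libraries (T18 replicate 1 or 2, or T21 replicate 1, 2 or 3), with edgeR adjusted p-values from 0.065 to 0.12. Without T18 replicate 3 the T18 libraries left held 1 and 2 raw counts, too few to give a fold. XLOC_068044 had 0 to 18 raw counts and was not tested. XLOC_019754, named *COL14A1* for a collagen that associates with fibrils, had 1 peak, shared. Another *COL14A1* locus, XLOC_013572, had 4 upstream peaks between 1835 and 5114 bp, 2 of them shared. Its normalised counts were 3.75, 3.30 and 7.57 at T18, 12.0 and 31.7 at T20 and 68.1, 96.4 and 98.5 at T21 (log2 fold change 3.98 ± 0.48 SE, edgeR adjusted p = 3.1e-05, or 4.59 without T18 replicate 3).

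Hox genes were close to 18 peaks at 7 of 22 named loci. Of these 18 peaks, 4 were shared and 12 lay upstream, against 38.6% and 80.6% of all intergenic peaks near genes. These few peaks were not tested against the whole set. At T21 against T18, 4 of 6 tested loci fell and 1 rose, with a median log2 fold change of -2.79. Among the 12 other tested Hox loci, 9 fell and 3 rose. *hox-alpha9* had 2 upstream peaks at 3091 and 3432 bp and 2 downstream at 8632 and 8922 bp, none of them shared. It had normalised counts of 318, 296 and 372 at T18, 29.9 and 11.2 at T20 and 25.3, 18.4 and 3.70 at T21. The T18 libraries all lay above the rest (log2 fold change -4.78 ± 0.55 SE, edgeR adjusted p = 5.2e-05), and leaving out T21 replicate 3 gave -3.96. *HOXB1* had 2 peaks on each side and 1 shared on each, at 4699 bp upstream and 7121 bp downstream. Normalised counts came to 129.9, 228 and 234 at T18, 106 and 80.1 at T20 and 31.1, 21.4 and 27.8 at T21, with no overlap between stages (log2 fold change -2.90 ± 0.32 SE, edgeR adjusted p = 1.4e-05). *hox-beta4*, with 3 upstream peaks and 1 shared, had normalised counts of 50.0, 67.7 and 53.8 at T18, 5.98 and 1.86 at T20 and 38.9, 18.4 and 26.6 at T21, lowest at T20 (log2 fold change -3.78 ± 0.62 SE, edgeR adjusted p = 0.00094 against T18). The T20 libraries held 4 and 1 raw counts, and without T20 replicate 1 the count left is too low to give a fold. For T21 against T18 the edgeR adjusted p was 0.054, and it was 0.027 without either T20 library and 0.029 with upper quartile normalisation.

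Neuronal factors were close to 16 peaks at 8 of 20 named loci, and 4 of these peaks were shared. From T18 to T21, 7 of the 8 loci rose and none fell. Among the 12 other tested loci of this list, 7 rose and 5 fell. Summed normalised counts over all 20 named loci were 5575 to 6281 at T18, 5134 and 3471 at T20 and 6770 to 7054 at T21. *POU4F2*, a POU-domain factor of sensory and retinal neurons, had 2 peaks on each side, none shared. The libraries held normalised counts of 0, 0 and 1.89 at T18, 14.9 and 57.7 at T20 and 247, 297 and 271 at T21. T21 lay above T20, and T20 above T18 (log2 fold change 7.75 ± 0.62 SE, edgeR adjusted p = 1.5e-06 for T21 against T18). All 7 raw counts at T18 came from replicate 3, so no fold can be given without that library. *Neurog2*, a proneural factor, had an upstream peak of 819 bp at 2019 bp, shared over its whole length, and 2 downstream peaks, of which 1 was shared over 8 bases. It had normalised counts of 43.7, 38.0 and 23.3 at T18, 435 and 387 at T20 and 401, 416 and 292 at T21, with the change between T18 and T20 (log2 fold change 3.62 ± 0.27 SE, edgeR adjusted p = 2.1e-06). *POU3F3* had 2 upstream peaks with 1 shared and did not pass the test (log2 fold change 0.72 ± 0.28 SE, edgeR adjusted p = 0.067), whereas without T18 replicate 1, either T20 library or T21 replicate 2 the edgeR adjusted p was between 0.032 and 0.038.

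Markers of other tissues differed between the stages of these dissections, beside the genes above. Over 30 loci named for keratins, muscle myosins and factors of mesoderm, notochord, endoderm and blood, the summed normalised count was 15707 to 18900 at T18, 38080 and 82107 at T20 and 113569 to 133507 at T21. Of this, 8 keratin loci made up 8789 to 11789, 29544 and 75974, and 109367 to 129210. The 11 loci of mesoderm, notochord and endoderm factors summed to 3653 to 5010 at T18, 1163 and 501 at T20 and 94.4 to 141 at T21. The 7 loci of muscle myosins and *MYOM2* summed to 1218 to 1590 at T18, 4197 and 2528 at T20 and 2317 to 2862 at T21, and the 4 *GATA1* and *GATA2* loci to 1307 to 1868, 3176 and 3104, and 1628 to 1791. None of the 30 was at 0 in all 8 libraries. Over 33 loci of neural plate border and crest factors the sums were 68885 to 72222, 80005 and 91841, and 95625 to 101349. The part of other tissues in the stage differences was not tested.

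Of these 30 loci, 15 were nearest to 29 peaks, 11 of them shared. Between T18 and T21, 5 of 14 tested loci rose and 7 fell. The counts were 4 and 8 with upper quartile normalisation, and 6 and 6 of 15 tested loci by DESeq2. Of the 14 other tested loci of this list, 5 rose and 7 fell. *shha*, a signal from notochord and floor plate, had upstream peaks at 3596, 7435 and 9840 bp, of which the first and last were shared. In the 8 libraries the normalised counts were 192, 159 and 292 at T18, 31.4 and 7.45 at T20 and 5.84, 0 and 1.85 at T21. From T18 to T20 it had one of the 3 largest decreases (log2 fold change -3.42 ± 0.58 SE, edgeR adjusted p = 0.0015), or -4.88 when T20 replicate 1 was left out and -2.80 when T20 replicate 2 was. Loci named *meox2*, a homeobox gene of the somites, gave 2 of the 6 largest decreases from T18 to T21. XLOC_018835 had normalised counts of 1115, 998 and 814 at T18, 268 and 227 at T20 and 25.3, 26.0 and 12.2 at T21 (log2 fold change -5.76 ± 0.26 SE, edgeR adjusted p = 7.2e-09), and XLOC_063579, on another scaffold, 757, 683 and 593 at T18, 184 and 112 at T20 and 21.4, 22.9 and 16.3 at T21 (log2 fold change -5.16 ± 0.25 SE, edgeR adjusted p = 1.4e-08). Their first upstream peaks lay at 1771 and 1765 bp and were not shared, and the next lay at 3073 and 2661 bp and were. These copies may share counts, since multi-mapping reads were included. A further locus named *meox2*, XLOC_006930, had 3 upstream peaks, 2 of them shared. XLOC_027833, named *gata2* after a factor of blood and of some neurons, had 3 upstream peaks, none shared. It rose (log2 fold change 1.42 ± 0.18 SE, edgeR adjusted p = 6.1e-05), whereas the T18 and T21 libraries overlapped in the sum over all 4 *GATA1* and *GATA2* loci given above.

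**Figure D5:**
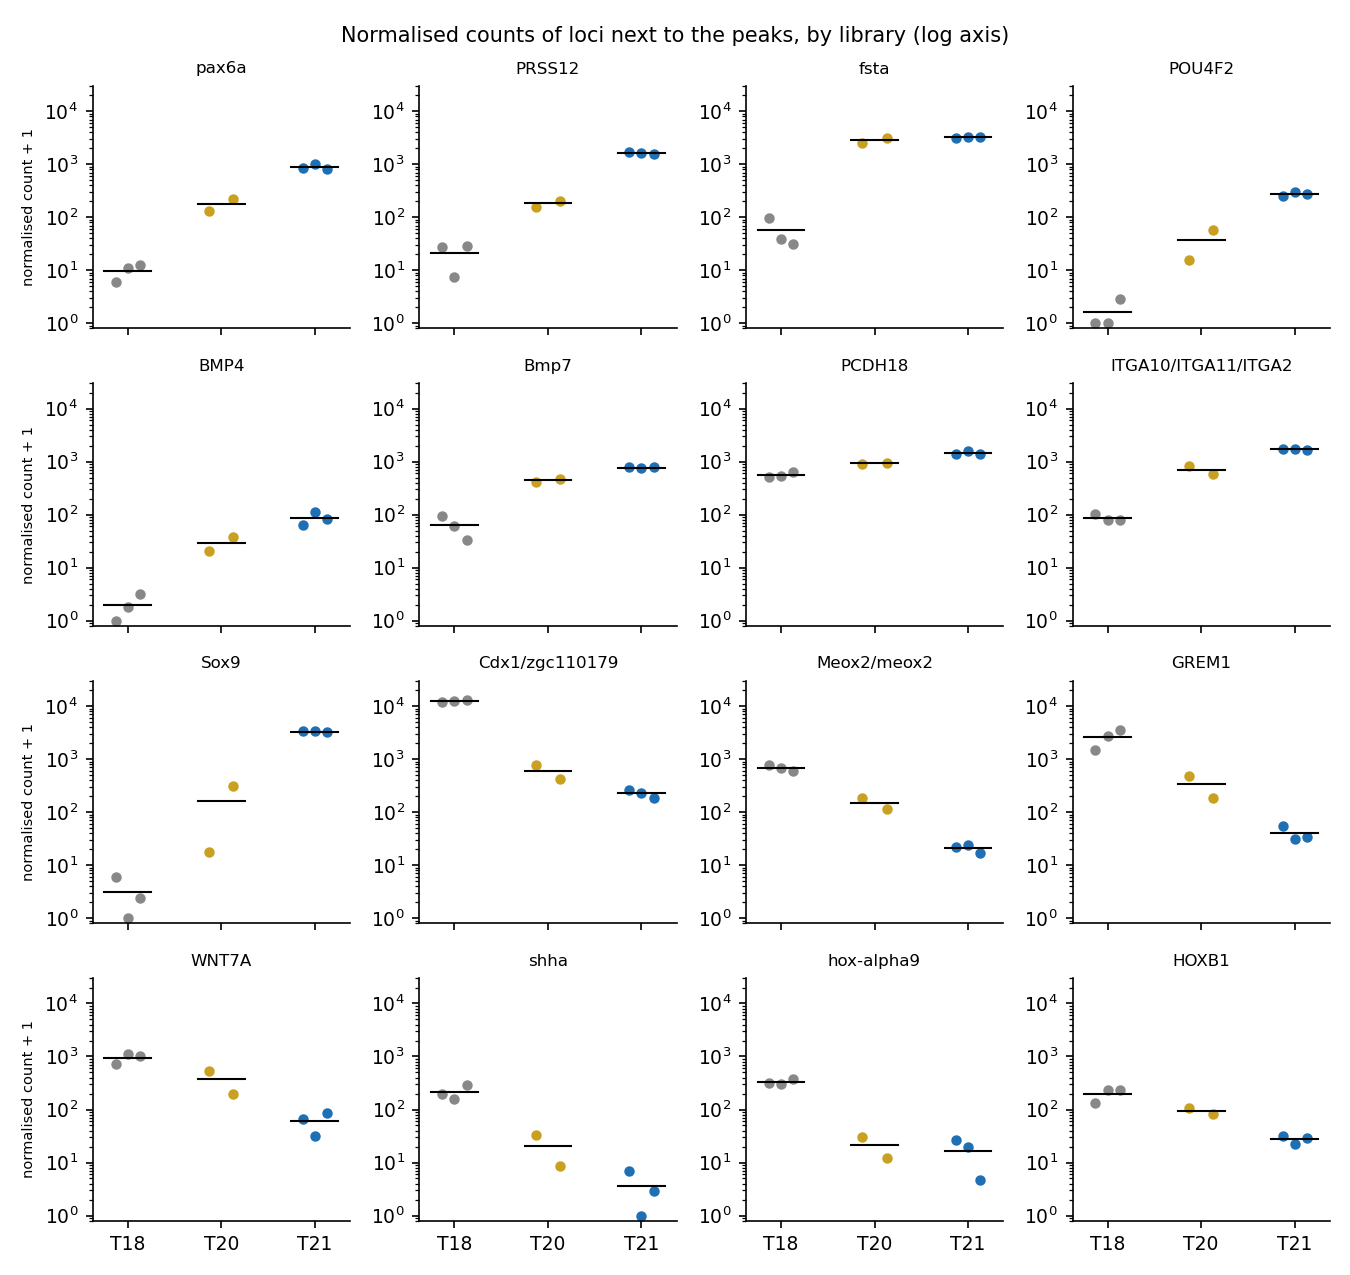
Normalised counts plus 1 (vertical log axis) of 16 loci next to intergenic peaks, with 1 point per library and a line at the mean of each stage (T18, n = 3; T20, n = 2; T21, n = 3). The first 9 panels, from *pax6a* to *Sox9* (XLOC_013714), hold loci that were higher at T21 than at T18. The last 7 panels hold loci that were lower.

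Under these conditions, the 6 largest increases from T18 to T21 were at *fsta* and at transcription factor, protease and matrix genes. Loci with fewer counts at T18, such as the *Sox9* locus XLOC_013714, could not enter. *pax6a*, which encodes a regulator of eye and brain development, had 5 upstream peaks, at 1289, 2253, 7776, 9056 and 9634 bp, with those at 2253, 7776 and 9634 bp shared. Its normalised counts were 5.00, 9.91 and 11.6 at T18, 133 and 219.7 at T20 and 846, 1033 and 817 at T21, with no overlap between stages (log2 fold change 6.47 ± 0.27 SE, edgeR adjusted p = 4.3e-09). *PRSS12*, for a secreted protease of neurons, had 3 upstream peaks, of which the one at 9950 bp was shared, and normalised counts of 26.2, 6.61 and 27.6 at T18, 158 and 205 at T20 and 1739, 1655 and 1556 at T21 (log2 fold change 6.24 ± 0.32 SE, edgeR adjusted p = 2.5e-07). The other 3 had 1 or 2 upstream peaks, each shared. *SSPO*, for a secreted glycoprotein of the midline of the brain, had a peak at 1959 bp covered over all its 486 bases (log2 fold change 5.88 ± 0.46 SE, edgeR adjusted p = 6e-06). The locus named *ADAMTS14* and *ADAMTS3*, procollagen proteases, had one at 4092 bp (log2 fold change 5.85 ± 0.23 SE, edgeR adjusted p = 2.5e-09), and *has1*, a hyaluronan synthase gene, had 2 at 4829 and 5772 bp (log2 fold change 5.78 ± 0.39 SE, edgeR adjusted p = 4.7e-07).

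The 6 largest decreases under these conditions were at *Fzd8*, at the *meox2* loci XLOC_018835 and XLOC_063579 and at 3 further loci. The locus named *Cdx1* and *zgc110179* (scaf_00021:2955243-3114795), the first a homeobox factor of posterior tissue, had upstream peaks at 4278 bp and, shared over 46 bases, at 6608 bp. Normalised counts came to 11735, 12554 and 13068 at T18, 759 and 425 at T20 and 263, 229 and 185 at T21. All T18 libraries lay far above the rest, both for T20 (log2 fold change -4.39 ± 0.25 SE, edgeR adjusted p = 5.2e-06) and for T21 (log2 fold change -5.84 ± 0.23 SE, edgeR adjusted p = 1.2e-07). *crhr2*, for a receptor of corticotropin-releasing hormone, had 1 peak, shared, at 6833 bp (log2 fold change -4.94 ± 0.32 SE, edgeR adjusted p = 1.4e-07). *TNFAIP6*, for a protein that binds hyaluronan, had 6 upstream peaks between 4773 and 9401 bp, of which only the widest, 877 bp across and 6919 bp from the start, was shared (log2 fold change -4.21 ± 0.28 SE, edgeR adjusted p = 2.3e-07).

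The largest changes over a single step, under the same conditions, included further loci. From T18 to T20, *Il17c*, a cytokine gene, had normalised counts of 20.0, 35.5 and 9.19 at T18, 1263 and 1298 at T20 and 422, 1179.5 and 1025 at T21 (log2 fold change 6.08 ± 0.63 SE, edgeR adjusted p = 0.00084), and *egr1-b*, an early response factor gene, 6.24, 70.2 and 9.19 at T18, 1739.9 and 1141 at T20 and 588, 1179.5 and 1104 at T21 (log2 fold change 5.78 ± 0.88 SE, edgeR adjusted p = 0.0075). Each had 1 shared upstream peak, at 2469 and 1826 bp. Without T18 replicate 2 or 3 the log2 fold changes were 6.70 and 5.45 for *Il17c* and 7.36 and 5.08 for *egr1-b*. From T20 to T21, the membrane protein gene *Mmd2* had normalised counts of 8.74, 23.1 and 15.4 at T18, 16.4 and 7.45 at T20 and 200.4, 382 and 285 at T21 (log2 fold change 4.54 ± 0.50 SE, edgeR adjusted p = 0.00016, or 5.28 without T20 replicate 1). *Neto2*, for an auxiliary subunit of kainate receptors, had 16.2, 3.30 and 11.6 at T18, 8.97 and 18.6 at T20 and 286, 367 and 298 at T21 (log2 fold change 4.54 ± 0.51 SE, edgeR adjusted p = 0.00017, or 5.13 without T20 replicate 2). At both loci the T18 and T20 libraries overlapped and those of T21 lay far above. Each had 1 peak, shared, at 1499 and 1340 bp upstream. *FTCD*, for an enzyme of histidine breakdown, had normalised counts of 36.2, 77.6 and 171 at T18, 92.7 and 63.3 at T20 and 7.78, 12.2 and 11.1 at T21 and fell over the same step (log2 fold change -2.87 ± 0.60 SE, edgeR adjusted p = 0.011), with edgeR adjusted p-values of 0.051 without T20 replicate 1 and 0.054 without T21 replicate 3. It had 2 upstream peaks, and the one at 5743 bp was shared. The *meox2* loci XLOC_018835 and XLOC_063579 had the other largest decreases over this step, -3.78 ± 0.28 (SE, edgeR adjusted p = 8.2e-06) and -2.97 ± 0.27 (SE, edgeR adjusted p = 4.2e-05).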

How the data were processed

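RNA-seq reads were trimmed with Sickle and mapped by the authors to the sea lamprey germline genome assembly with STAR 2.4.2, and transcripts were assembled with Cufflinks and Cuffmerge. The deposited counts are raw fragment counts per locus from featureCounts 1.4.6-p4, with strand used and multi-mapping reads counted, so near-identical copies share reads. The deposited normalised counts, a signal without negative values, are these counts divided by the authors' DESeq2 1.8.2 size factors. The header of the count table has 14 fields and its rows 13, so each column was taken by its place in the row and compared with the normalised counts of the same library. All 8 columns of dorsal neural tube libraries were used, and 0 columns of values per sample were left without a sample. An RNA-seq library of T20 heads and embryos was not analysed here.

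ATAC-seq reads of both species were mapped to that assembly with Bowtie2 and cleared of duplicates with Picard 1.83. The authors merged and down-sampled the replicates of each stage, called peaks with MACS2 per stage and merged them over stages with bedtools 2.15.0. The deposited peak files hold positions alone, with no height or score.

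Distances were measured from the peak centre to the nearest transcript start, and a peak shared with the brook lamprey overlapped one of its peaks by at least 1 bp. Library totals ranged from 12172421 to 91015285 counts. Loci were tested with edgeR 4.0.16 in R 4.3.3 (filterByExpr, TMM, quasi-likelihood test, all 8 libraries in 1 fit by stage), with Benjamini-Hochberg adjustment over the 25317 loci that passed the filter and a threshold of 0.05. Each SE was derived from this test, as the absolute log2 fold change divided by the square root of its F statistic. Replicates are separate pools of embryos, and p-values measure the spread between these pools. No fold was given against a stage with 3 or fewer counts in each library. Fits were tested on simulated data. DESeq2 1.42.0, other normalisations, a replicate block and leaving out each library were alternatives.

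Gene names were read from the study's supplementary gene lists, which were partly shortened. The members and the 12 gene lists were chosen with earlier results of these data known. Named were, of each list, up to 3 nearest loci with the most peaks, the 5 nearest loci with the most peaks, and the named loci beside a shared peak with the largest changes between stages whose libraries did not overlap (6 in each direction for T21 against T18, and 3 for the other comparisons). No sequence is printed, since no genome of this assembly was used here.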

Additional observations from a re-analysis of the deposited data

How the results depend on the processing

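The set held 10932 peaks with an upper limit of 5 kb and 35937 with 20 kb. The upstream share was 87.9% and 75.5% with these limits, 77.9% with a lower limit of 2000 bp, 74.8% with starts of all stranded loci, 86.8% with loci of 5000 bp or more, 81.7% with the whole peak outside every locus and 84.8% with the outermost start of each locus. Brook lamprey overlap was 37.8% with loci of 5000 bp or more and 37.9% with the whole peak outside every locus. It was 30.0% where 50% of the peak had to be covered, 22.7% where this held for both peaks, 30.8% where the centre had to lie inside a brook lamprey peak and 52.4% with peaks up to 500 bp away.

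Where an absolute log2 fold change of at least 1 was also required, 1675 nearest loci differed between T21 and T18 (1236 higher, 439 lower). There were 965 between T20 and T18 (682 higher, 283 lower) and 526 between T21 and T20 (393 higher, 133 lower). Counting only loci with a shared peak gave 1646, 900 and 555. Leaving out each library gave 2596 to 3796, 1230 to 2347 and 567 to 1498, and a single T20 library was then assumed to vary like the other stages. DESeq2 called 3163, 1884 and 1242. For the fold threshold, the left-out libraries, DESeq2 and the replicate block below, shares over all loci are not given. These counts therefore show only how far the totals move.

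With the replicate number as a block, the counts were 3117, 1459 and 754. Same-numbered libraries correlated between -0.0371 and 0.0802 in their deviations from the stage means, so the numbers did not pair them. Over the 54 of 58 named loci that were tested, 103 of 2265 alternative values lost a call and 32 gained one. In 0 cases did the sign change where either fit gave a call. The other 2130 stayed on the same side of the threshold, and any sign change without a call was counted among them. The T20 comparisons rest on 2 libraries, and the peak sets hold no replicate. These T20 libraries also differed more from each other than other replicates did. Against counting noise, their chi-square per degree of freedom was 24.0, and it was 4.20 to 13.1 for the other replicate pairs.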
